A study of Mus musculus with 48 samples.

Results

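The 8 genes Dcx, Igfbpl1, Sox11, Sox4, Eomes, Neurod1, Draxin and Calb2, which mark successive steps from progenitor to immature granule neuron, were followed through the kainate model of temporal lobe epilepsy. They were taken by name from the 55357 genes of the deposited count table, with earlier results of these data known, and described over all 48 libraries. Shares of members set beside shares of all genes are therefore descriptive. All 8 were among the 21390 genes that passed the filter on low counts. Kainate, a glutamate receptor agonist, or saline was injected into the hippocampus on 1 side of C57BL/6J mice, and the dorsal dentate gyrus of both sides was microdissected 3, 7 or 14 days later. The injected side is denoted the EZ (epileptogenic zone) and the opposite, uninjected side the PIZ (peri-ictal zone). Region, injection and day gave 12 groups of 4 libraries from 24 mice, so that each mouse gave 1 EZ and 1 PIZ library and the controls were saline-injected mice taken at the same days. There were 2 male and 2 female mice for each injection and day, aged 6 to 8 weeks per the design text of the deposited series (the study's methods give an older range), and every kainate mouse had shown behavioural seizures. The dissected tissue holds the hilus as well as the granule cell layer. Depth was 17762656 to 25712975 counts per library (median 22108562).

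The dentate gyrus keeps a pool of radial glia-like stem cells that produce granule neurons throughout life. Stem cells give rise to intermediate progenitors that express Eomes (Tbr2), these become neuroblasts under proneural factors such as Neurod1, and the young neurons pass through a stage marked by doublecortin (Dcx) and, in mice, transiently by calretinin (Calb2). Seizures are known to alter the number, position and shape of these young neurons.

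The proximal promoters of Dcx, Eomes and Draxin are shown because the comparison of the sides within single mice turns on these 3 genes. Each sequence is the 250 bases before the start of the gene's reference transcript on GRCm39, read 5′ to 3′ on the gene's strand, from chrX:142716132-142716381 (minus strand) for Dcx, chr9:118307030-118307279 (plus strand) for Eomes and chr4:148215156-148215405 (minus strand) for Draxin. Capitals mark matches, on either strand, to the E-box CANNTG, the kind of site that proneural factors bind, or to ACAAAG, a core that Sox factors bind.
Dcx: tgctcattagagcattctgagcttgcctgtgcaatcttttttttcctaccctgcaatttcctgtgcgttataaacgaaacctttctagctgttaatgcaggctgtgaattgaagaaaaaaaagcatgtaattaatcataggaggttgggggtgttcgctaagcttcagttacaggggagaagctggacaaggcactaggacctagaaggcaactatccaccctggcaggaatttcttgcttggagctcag
Eomes: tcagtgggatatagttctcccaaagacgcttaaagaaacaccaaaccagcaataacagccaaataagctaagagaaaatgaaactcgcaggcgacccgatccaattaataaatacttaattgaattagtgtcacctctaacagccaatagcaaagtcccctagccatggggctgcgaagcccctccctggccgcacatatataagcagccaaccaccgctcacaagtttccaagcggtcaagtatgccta
Draxin: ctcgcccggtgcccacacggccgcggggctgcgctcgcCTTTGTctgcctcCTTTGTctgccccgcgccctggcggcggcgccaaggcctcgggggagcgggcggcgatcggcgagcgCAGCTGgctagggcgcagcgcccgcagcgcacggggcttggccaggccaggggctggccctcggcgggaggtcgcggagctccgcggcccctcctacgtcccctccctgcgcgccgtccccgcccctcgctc
Only the Draxin window of these 3 held a match, with 1 CANNTG and 2 ACAAAG. Of 4 other members searched, Neurod1 had 3 CANNTG, of which 1 read CAGATG (a subset of CANNTG), and 1 ACAAAG, Sox11 and Sox4 had 1 CANNTG each, and Calb2 had none. Across 21262 promoter windows of the same length, CANNTG occurred in 62.9%, CAGATG in 12.6% and ACAAAG in 15.0%. These matches describe the letters only, and no binding was measured. All 8 are protein-coding genes, and on GRCm39 (Gencode M39) the bodies of those shown span chrX:142638838-142716307 (Dcx), chr9:118307280-118315200 (Eomes) and chr4:148182894-148215155 (Draxin). Those of 4 others span chr12:27384263-27392573 (Sox11), chr13:29132902-29137696 (Sox4), chr2:79282865-79287294 (Neurod1) and chr8:110864128-110894881 (Calb2).

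In saline mice the 8 genes were expressed at unequal levels, compared here per length as RPKM (reads per kilobase of exon, scaled to library size). Neurod1, a basic helix-loop-helix factor that drives neuronal differentiation and persists in granule cells, was highest in the EZ at 9.92 ± 1.01 RPKM (SD, n = 12). Sox4, a SoxC transcription factor of young neurons, followed at 4.64 ± 0.563 and Calb2 at 4.15 ± 0.557 RPKM, a gap within their SD. Sox11, the other SoxC factor, had 2.81 ± 0.403 RPKM, Igfbpl1, a secreted protein related to the insulin-like growth factor binding proteins, had 2.45 ± 0.425 RPKM, and Dcx, a microtubule-associated protein, had 2.35 ± 0.267 RPKM. Neighbours among these 3 differed by less than their SD, while Sox11 and Dcx differed by more than either SD and their ranges overlapped. Draxin, a secreted axon guidance protein, and Eomes, the T-box factor of intermediate progenitors, were lowest at 0.598 ± 0.144 and 0.408 ± 0.111 RPKM, and their ranges overlapped. The PIZ medians gave the same order apart from 2 exchanges, Calb2 (4.62 RPKM) above Sox4 (3.82 RPKM) and Dcx (2.41 RPKM) above Igfbpl1 (1.84 RPKM). Low level limited precision for Eomes, which had between 1 and 191 counts in a library with a median of 32. No member was called between saline day 14 and saline day 3 in either region (edgeR, where 0.0% of all genes were), with 0 of 8 under an unadjusted p of 0.05 and 0 calls by DESeq2 or limma-voom.

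Some libraries stood apart from their groups in cell type markers, and the main estimates that rest on them are also given without them. The granule cell markers Prox1 and C1ql2 (the latter, like Lhx6 later, named after its values were seen) were detected in every library, with Prox1 between 84.0 and 335 CPM (counts scaled to the effective library size) and C1ql2 between 8.71 and 297 CPM. In 3 PIZ libraries (mouse 18, saline day 3; mouse 39, saline day 14; mouse 21, kainate day 7) the 14 mature granule cell genes summed to 968, 888 and 850 CPM, whereas in the other 21 PIZ libraries they summed to over 1000 CPM. The summed interneuron markers of these 3 libraries were 917, 1052 and 936 CPM, the 3 highest of the PIZ. Among EZ libraries, mice 21 and 35 at day 7 had the highest microglia sums (8252 and 5955 CPM) and the lowest mature granule cell sums (425 and 608 CPM). At day 14 the EZ of mouse 27 had a microglia sum of 3976 CPM, against 571 to 901 CPM in the other 3 kainate mice.

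**Figure D1:**
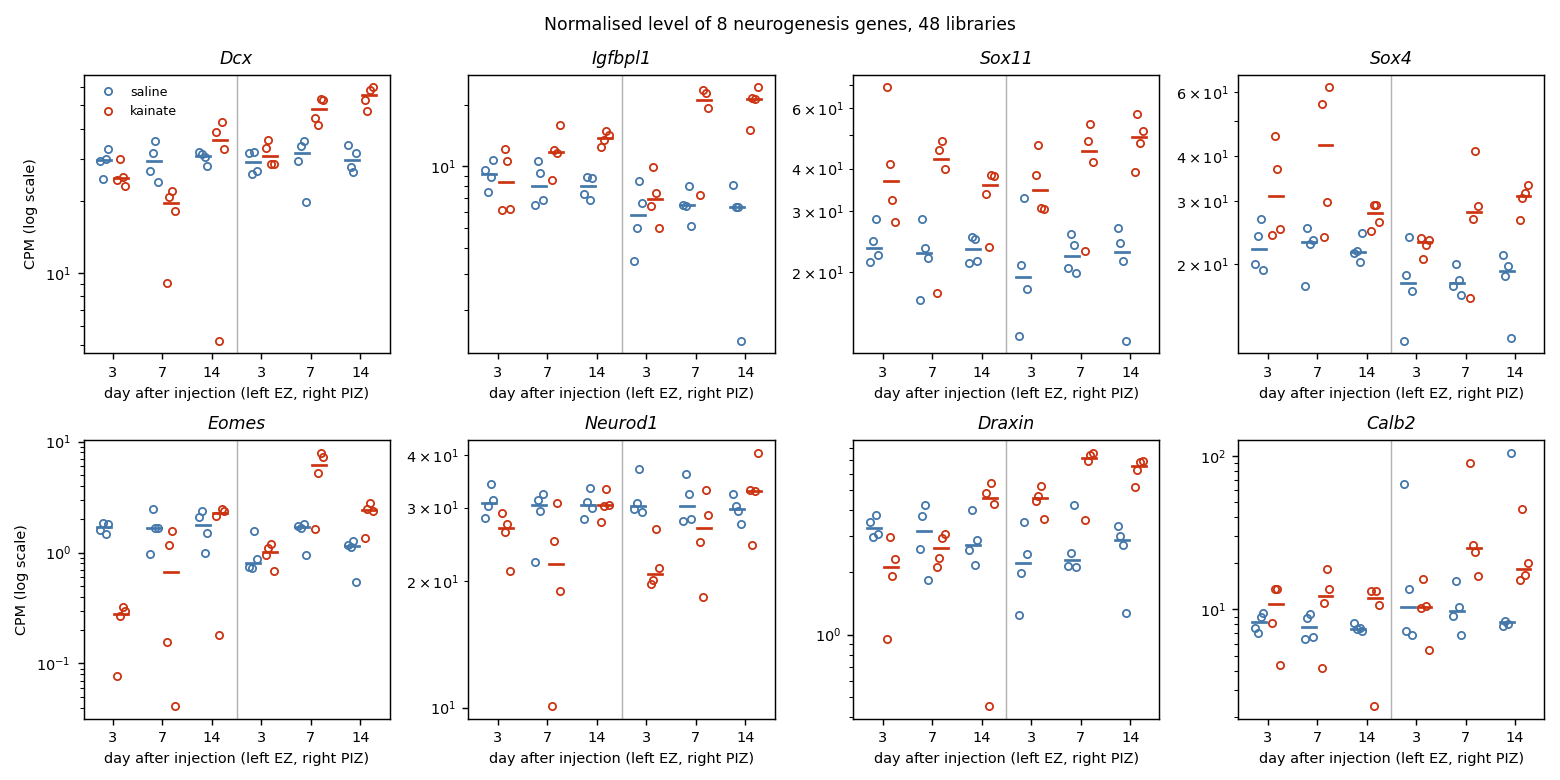
Normalised level (CPM, log scale) of each gene in each of the 48 libraries by day, with the EZ to the left and the PIZ to the right of the vertical line in each panel, saline in blue, kainate in red and bars at the group median (n = 4). Eomes in the EZ at day 3 lies below 0.33 CPM in all 4 kainate mice and above 1.4 CPM in all 4 saline mice, and Igfbpl1 in the PIZ at day 14 lies between 15.1 and 24.3 CPM in kainate mice and at or below 8.11 CPM in saline mice.

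In the EZ at day 3, kainate lowered the progenitor factor Eomes to a small fraction of its control level, while none of the immature neuron genes among the members passed the call. To be called, a gene needed a change of more than 1.5-fold together with an adjusted p below 0.01 (edgeR, Benjamini-Hochberg over all tested genes of the comparison). Eomes was 0.0765, 0.268, 0.326 and 0.295 CPM in kainate mice 30, 38, 42 and 44, which correspond to 2, 7, 9 and 7 counts. In saline mice 18, 29, 37 and 41 it was 1.59, 1.85, 1.48 and 1.80 CPM. Every kainate library was below every saline library. The log2 fold change was -2.77 ± 0.62 (SE, n = 4 per group, adjusted p = 0.000403). It was the 1 of 8 genes called, where 24.7% of all tested genes were called. In bulk tissue, fewer cells of a type and less RNA per cell cannot be told apart. Eomes is also known in T and NK lymphocytes, and the 13 markers of those cells were higher after kainate, with sums of 2.19 to 5.97 CPM against 0.646 to 0.926 CPM in saline mice (10 of the 13 had too few counts to be tested, and 1 of the other 3 was called). Summed microglia markers were 1763 to 3180 CPM in the same kainate libraries against 587 to 1017 CPM, with 7 of 8 markers called higher. Neuronal lists were lower, with interneuron sums of 240 to 428 CPM against 505 to 744 CPM. Sums for pyramidal neurons were 114 to 211 against 267 to 507 CPM (CA1) and 211 to 302 against 612 to 877 CPM (CA3). The part of these lists in the result was not tested.

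The list of 12 progenitor and cell cycle genes changed in both directions in the same comparison, with 7 genes higher and 4 lower. Those that fell were Insm1, a zinc-finger factor of progenitors (-3.20 ± 0.52, adjusted p = 5.89e-06), the proneural factor Neurog2 (-2.48 ± 0.56, adjusted p = 0.000431), the RNA-binding protein Elavl2 (-2.34 ± 0.35, adjusted p = 1.84e-06) and the cyclin Ccnd2 (-0.63 ± 0.20, adjusted p = 0.00785). Neurod4, a proneural factor from the neuroblast list, fell by 2.34 on the log2 scale (SE 0.68, adjusted p = 0.0049). The 7 that rose were the proliferation and replication genes Mki67 (3.09 ± 0.46), Cdk1 (3.25 ± 0.50), Top2a (3.02 ± 0.45), Cenpf (2.51 ± 0.34), Mcm2 (2.10 ± 0.23) and Pcna (1.09 ± 0.15) and the antiproliferative gene Btg2 (1.52 ± 0.26). These 7 genes, Insm1, Neurog2 and Neurod4 were named after their values were seen. Dividing cells of any type express the proliferation genes, and the share of each cell type was not tested. The radial glia-like list had 5 of 15 genes higher and 2 lower, with the intermediate filament gene Gfap at 1.28 ± 0.40 (adjusted p = 0.0079) and Vim at 3.23 ± 0.51 (adjusted p = 4.57e-06), both also made by reactive astrocytes. Median log2 fold changes were -0.13 for the 8 members, 0.45 for the radial glia-like list, 1.31 for the progenitor and cell cycle list and 0.03 for all tested genes.

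The remaining members did not pass the call at EZ day 3. Sox11 had the largest positive estimate, with 69.1, 41.2, 32.4 and 27.9 CPM in kainate mice 30, 38, 42 and 44 against 21.3, 24.6, 28.5 and 22.4 CPM in saline mice 18, 29, 37 and 41. Only mouse 44 fell within the saline range, and the log2 fold change was 0.82 ± 0.28 (adjusted p = 0.0141). This value was called when size factors were left out (0.94, adjusted p = 0.00502), without kainate mouse 44 (0.98, adjusted p = 0.00532) and without the 3 PIZ libraries (0.82, adjusted p = 0.00527), whereas without mouse 30, the highest, it was 0.48 (adjusted p = 0.161). Draxin was 0.956, 2.95, 1.92 and 2.32 CPM against 3.49, 2.97, 3.78 and 3.07 CPM in the same order of mice. Its groups did not overlap, but the log2 fold change of -0.71 ± 0.39 had an adjusted p of 0.129. Eomes and Draxin were 2 of 8 genes whose kainate libraries all lay below the saline libraries, where 18.5% of all tested genes did so, and 0 of 8 lay above (23.9% of all tested genes). Sox4 had 0.54 ± 0.23 (adjusted p = 0.0498) and Calb2 0.26 ± 0.68 (adjusted p = 0.775). The estimates of Dcx (-0.19 ± 0.28), Igfbpl1 (-0.07 ± 0.32) and Neurod1 (-0.25 ± 0.19) had adjusted p of 0.611, 0.878 and 0.268.

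By day 7 in the EZ, Sox4 was the member called higher, and Dcx lay below the saline range in every kainate mouse without passing the call. Sox4 was 55.7, 23.9, 29.8 and 62.0 CPM in kainate mice 21, 23, 26 and 35, and 17.4, 25.2, 22.8 and 23.4 CPM in saline mice 20, 33, 34 and 89. The 2 highest values came from mice 21 and 35, the EZ libraries with the highest microglia sums and the lowest granule cell sums, and the part of these in the result was not tested. Sox4 rose by 0.95 ± 0.23 on the log2 scale (adjusted p = 0.000623), as 1 of 8 members called where 32.5% of all tested genes were. The call was kept without mouse 21 (0.80, adjusted p = 0.00322) and lost without mouse 35 (0.72, adjusted p = 0.0115) and when only the 8 libraries compared were modelled (0.94, adjusted p = 0.0317). Sox11, in contrast, was lowest in mouse 21, with 17.4 CPM against 45.4, 48.1 and 39.9 CPM in mice 23, 26 and 35 and 16.5 to 28.5 CPM in saline mice. Its log2 fold change of 0.74 ± 0.28 (adjusted p = 0.0227) was called without mouse 21 (0.98, adjusted p = 0.00146). Over all omissions of 1 mouse the Sox11 estimate ran from 0.60 to 0.98.

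Dcx at EZ day 7 was 9.05, 20.8, 22.0 and 18.2 CPM in kainate mice 21, 23, 26 and 35. In saline mice 20, 33, 34 and 89 it was 26.7, 31.7, 35.4 and 24 CPM. The groups did not overlap, as for 20.1% of all tested genes in this direction. No other member was separated in either direction, where 23.7% of all tested genes lay above. The log2 fold change was -0.75 ± 0.28 (adjusted p = 0.0231), short of the call in edgeR and DESeq2 but past it in limma-voom (-0.94, adjusted p = 0.00224). Dcx had -0.53 without mouse 21 (adjusted p = 0.133) and -0.77 without mouse 35 (adjusted p = 0.0442). Eomes split the kainate mice, with 1.17 and 1.56 CPM in mice 23 and 26 and 0.157 and 0.0415 CPM (4 counts and 1 count) in mice 21 and 35, against 0.97 to 2.48 CPM in saline mice. The estimate of -1.22 ± 0.55 (adjusted p = 0.0567) was therefore spread over kainate mice that differed among themselves, and it ran from -0.82 without mouse 35 (adjusted p = 0.212) and -0.87 without mouse 21 (adjusted p = 0.172) to a called -1.97 without mouse 26 (adjusted p = 0.00685). Neurod1 was likewise lowest in mice 21 and 35 (10.1 and 19.0 CPM against 25.0 and 30.7 CPM in mice 23 and 26), with a log2 fold change of -0.44 ± 0.19 (adjusted p = 0.0408) that was -0.21 without mouse 21 (adjusted p = 0.298), -0.39 without mouse 35 (adjusted p = 0.113) and a called -0.68 without mouse 26 (adjusted p = 0.00189). Insm1 fell (-1.98 ± 0.46, adjusted p = 0.000423) and Neurog2 was not called (-0.21 ± 0.47, adjusted p = 0.728). The radial glia-like list had 13 of 15 genes higher at this day and 1 lower, including the glutamate transporter Slc1a3 (0.78 ± 0.12, adjusted p = 7.76e-07), and the mature granule cell list had 5 of 14 lower and 0 higher, including Icam5 (-1.05 ± 0.33, adjusted p = 0.00664).

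At day 14 in the EZ no member was called by edgeR, DESeq2 or limma-voom (0 of 8), where 2.36% of all tested genes were called by edgeR, and 1 had an unadjusted p under 0.05 (18% of all genes). Igfbpl1 was 12.4, 13.4, 14.9 and 14.2 CPM in kainate mice 14, 27, 36 and 40, above all 4 saline mice at 6.89 to 8.84 CPM. Its log2 fold change was 0.78 ± 0.32 (adjusted p = 0.166). Igfbpl1 and Sox4 (24.8 to 29.2 CPM against 20.3 to 24.4 CPM) were the 2 members with all kainate libraries above the saline libraries, where 4.58% of tested genes were, and 0 of 8 had all of them below (3.42% of tested genes). Dcx was 38.7, 42.7 and 33 CPM in kainate mice 14, 36 and 40, each above the saline range of 27.9 to 32.1 CPM, and 5.21 CPM in mouse 27. In mouse 27, Eomes (0.181 CPM), Draxin (0.453 CPM), Calb2 (2.36 CPM) and Sox11 (23.6 CPM) were also below the other kainate mice, while Igfbpl1, Sox4 and Neurod1 (30.3 CPM) were within their range. Without mouse 27 the log2 fold changes were 0.32 for Dcx (-0.03 with it), 0.43 for Eomes (0.05 with it), 0.74 for Draxin (0.36 with it), 0.70 for Calb2 (0.37 with it) and 0.66 for Sox11 (0.52 with it), and none was called. The change of the Dcx effect from day 7 to day 14 was 0.72 ± 0.40 (adjusted p = 0.2), and without mouse 27 it was 1.08 (adjusted p = 0.00099), which passed the call. Without that mouse 18.8% of all genes passed it in this comparison, against 0.271% with all mice. Gfap (2.21 ± 0.41, adjusted p = 0.0011) and Vim (2.64 ± 0.50, adjusted p = 0.00132) of the radial glia-like list were higher at this day with all mice, and without mouse 27 they had 1.08 (adjusted p = 0.0789) and 0.98 (adjusted p = 0.458).

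**Figure D2:**
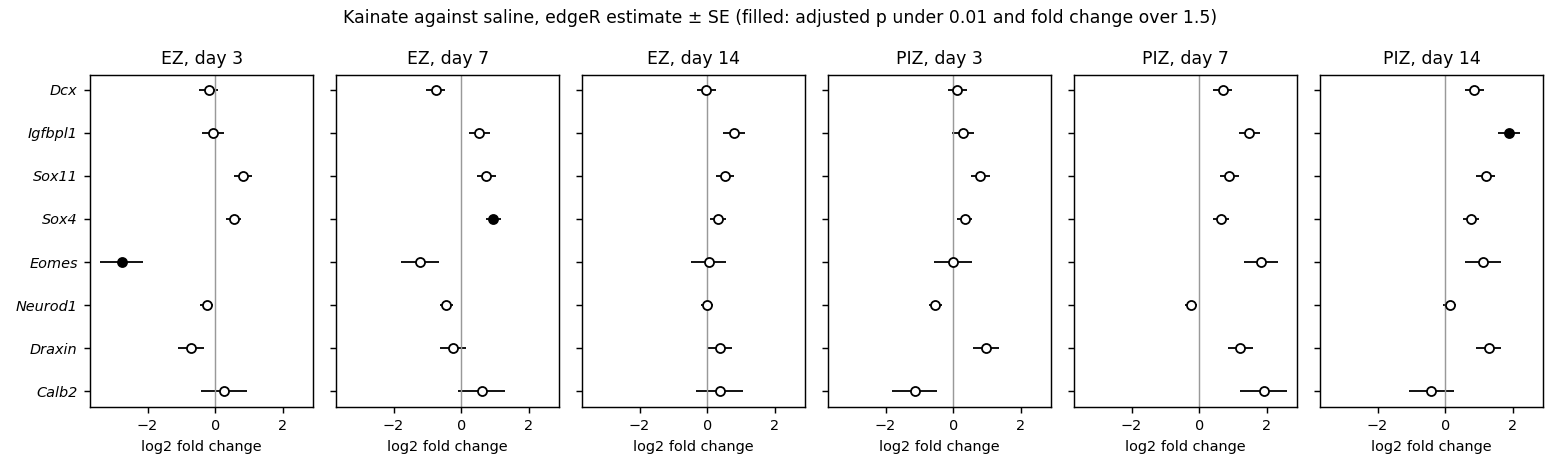
Log2 fold change of kainate against saline for the 8 genes in each region and day (edgeR estimate, bars ± 1 SE, n = 4 mice per group), with filled points for called genes. The filled points are Eomes at EZ day 3 (-2.77), Sox4 at EZ day 7 (0.95) and Igfbpl1 at PIZ day 14 (1.88), and in the PIZ 7 of 8 estimates exceed 0 at both later days.

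In the uninjected PIZ at day 3 no member was called by edgeR, DESeq2 or limma-voom (0 of 8), where 8.69% of all tested genes were called by edgeR, and 3 had an unadjusted p under 0.05 (35.7% of all genes). Neurod1 was 19.7, 20.2, 26.7 and 21.5 CPM in kainate mice 30, 38, 42 and 44, below the saline range of 29.3 to 37.1 CPM. Draxin was 4.42, 4.69, 5.25 and 3.6 CPM in the same mice, above the saline range of 1.25 to 3.51 CPM. Neurod1 was thus the 1 member with all kainate libraries below (13.6% of tested genes) and Draxin the 1 with all above (17.1% of tested genes). Their log2 fold changes were -0.53 ± 0.19 (adjusted p = 0.0353) and 0.96 ± 0.38 (adjusted p = 0.0658), and without the 3 PIZ libraries -0.56 (adjusted p = 0.0535) and 0.75 (adjusted p = 0.173). Sox11 had 0.79 ± 0.28 (adjusted p = 0.0347), which passed the call without saline mouse 37 (1.09, adjusted p = 0.00881). Without the 3 PIZ libraries Sox11 had 0.62 (adjusted p = 0.0970). Eomes did not share the low level of the EZ, at 0.679 to 1.19 CPM in kainate and 0.729 to 1.56 CPM in saline mice. Summed microglia markers were 1179 to 1436 CPM in these kainate libraries against 337 to 464 CPM, with 8 of 8 genes higher, and Gfap was higher by 3.65 ± 0.44 (adjusted p = 3e-07).

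At PIZ day 7, 7 of 8 members had a positive estimate, and their median log2 fold change was 1.05 against 0.01 over all tested genes. None passed the call in edgeR (0 of 8, where 0.201% of all genes did), although 7 had an unadjusted p under 0.05 (14.5% of all genes), DESeq2 called 1 (with 195 genes called in all) and limma-voom called 6 (where it called 3.84% of all tested genes). Igfbpl1 was 7.24, 23.5, 22.8 and 19.3 CPM in kainate mice 21, 23, 26 and 35 and 5.10 to 8.05 CPM in saline mice. Eomes was 1.63, 5.19, 7.98 and 7.20 CPM in the same kainate mice and 0.941 to 1.82 CPM in saline mice. In both genes the value inside the saline range was that of mouse 21, the PIZ library with the lowest granule cell sum. The log2 fold changes were 1.48 ± 0.32 (adjusted p = 0.0129) for Igfbpl1 and 1.83 ± 0.51 (adjusted p = 0.0545) for Eomes. Without mouse 21 Igfbpl1 was called (1.75, adjusted p = 0.00173), as it was without the 3 PIZ libraries (1.75, adjusted p = 0.000101), and Eomes reached 2.14 without those 3 libraries (adjusted p = 0.0178). T and NK cell markers were higher in the same kainate libraries, with sums of 1.54 to 3.47 CPM against 0.164 to 0.935 CPM (0 of 3 tested markers called, median log2 fold change 1.99). Microglia sums were 484 to 961 CPM against 364 to 461 CPM (0 of 8 called), and the part of either in the Eomes values was not tested.

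Draxin followed the same pattern at PIZ day 7, with 3.58 CPM in mouse 21 and 6.87, 7.40 and 7.58 CPM in mice 23, 26 and 35, against 2.13 to 4.21 CPM in saline mice (1.22 ± 0.38, adjusted p = 0.0992, and 1.41 without the 3 PIZ libraries, adjusted p = 0.0405). Sox11 had 0.89 ± 0.28 (adjusted p = 0.0979) and Sox4 0.65 ± 0.23 (adjusted p = 0.16), and without the 3 libraries 1.09 (adjusted p = 0.0183) and 0.84 (adjusted p = 0.0308). Dcx did not, because mouse 21 had 44.2 CPM, within the 41.4, 53.2 and 52.9 CPM of mice 23, 26 and 35, and all 4 exceeded the saline values of 29.4, 33.9, 35.4 and 19.8 CPM. Its log2 fold change was 0.69 ± 0.28 (adjusted p = 0.229). Dcx and Calb2 were the 2 members with all kainate libraries above the saline libraries, where 7.63% of tested genes were, and 0 of 8 had all below (5.26%). Among the 30 other genes of neuroblasts and immature neurons, 2 rose and 0 fell, St8sia2, a polysialyltransferase that modifies neural cell adhesion molecules (1.45 ± 0.26, adjusted p = 0.00255), and the neuropeptide gene Tac2 (2.80 ± 0.56, adjusted p = 0.00728). St8sia2 was 4.03, 9.31, 9.03 and 5.90 CPM in kainate mice 21, 23, 26 and 35 against 2.14 to 3.06 CPM in saline mice. The 2 most abundant genes of that list were not called, with Tubb2b, a tubulin of growing neurons, at 0.31 ± 0.13 (adjusted p = 0.225) and the semaphorin co-receptor Plxna4 at -0.25 ± 0.22 (adjusted p = 0.635).

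At PIZ day 14, when 3 genes of 21390 were called (0.014%), Igfbpl1 was 1 of them. It was 15.1, 21.5, 21.2 and 24.3 CPM in kainate mice 14, 27, 36 and 40. In saline mice 24, 28, 31 and 39 it was 8.11, 6.38, 6.38 and 1.42 CPM, and mouse 39 is 1 of the 3 PIZ libraries with a low granule cell sum. Igfbpl1 rose by 1.88 ± 0.33 on the log2 scale (adjusted p = 0.00764, edgeR). The estimate without mouse 39 was 1.56 (adjusted p = 0.0357). The call was also lost without mice 27 (1.85, adjusted p = 0.0305), 36 (1.86, adjusted p = 0.0277), 40 (1.79, adjusted p = 0.0408), 28 (1.95, adjusted p = 0.0277) or 31 (1.95, adjusted p = 0.0441), and with only the 8 libraries in the model (1.88, adjusted p = 0.107), whereas it was kept without the 3 PIZ libraries (1.56, adjusted p = 0.00127).

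Other members were separated between the groups at PIZ day 14 although edgeR did not call them. DESeq2 called 1 of 8 members (with 7 genes called in all), and limma-voom called 4 of 8, where it called 0.449% of all genes. Dcx was 52.5, 47.5, 58.1 and 59.6 CPM in kainate mice 14, 27, 36 and 40 against 34.2, 27.6, 26.3 and 31.7 CPM in saline mice 24, 28, 31 and 39. Sox11 was 39.1, 57.9, 47.6 and 51.6 CPM against 26.9, 24.3, 21.5 and 12.6 CPM. With Igfbpl1, Sox4 (26.6 to 33.3 against 12.5 to 21.3 CPM), Eomes (1.36 to 2.77 against 0.539 to 1.27 CPM) and Draxin (5.17 to 6.93 against 1.27 to 3.35 CPM), 6 of 8 members had every kainate library above every saline library. Over all tested genes 3.7% did so, and the opposite separation was seen in 0 of 8 members and 3.47% of tested genes. In an exact permutation test each of the 6 had a 2-sided p of 0.0286, the smallest that 4 mice against 4 allow, unadjusted over 48 such tests. Complete separation always gives this p, so it adds nothing to the separation itself. The log2 fold changes were 0.86 ± 0.28 for Dcx (adjusted p = 0.403), 1.20 ± 0.28 for Sox11 (adjusted p = 0.120), 0.76 ± 0.23 for Sox4 (adjusted p = 0.342), 1.12 ± 0.53 for Eomes (adjusted p = 0.804) and 1.28 ± 0.38 for Draxin (adjusted p = 0.309). Without the 3 PIZ libraries, and so without mouse 39, these were 0.89, 1.01, 0.62, 0.92 and 1.06 in the same order, and none was called. Neurod1 had 0.13 ± 0.19 (adjusted p = 0.999). The other 18 lists had 0 genes called at this day in the PIZ. The median log2 fold change was 0.99 for the 8 members, 0.22 for the neuroblast list and -0.04 for the mature granule cell list, and among markers of other cell types the highest was 0.98 for the 6 tested choroid plexus genes. At day 7 the choroid plexus median (1.14) and the T and NK cell median (1.99) were above the 1.05 of the members.

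**Figure D3:**
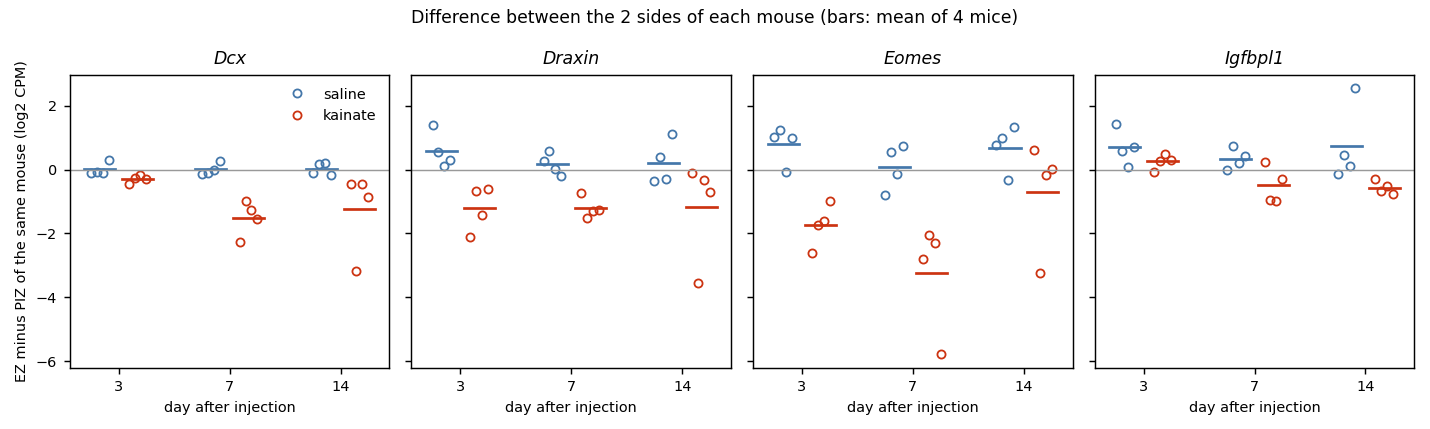
Difference between the EZ and the PIZ of each mouse (log2 CPM, prior count 2) for Dcx, Draxin, Eomes and Igfbpl1 by day, with saline in blue, kainate in red and bars at the mean of 4 mice. All 12 kainate mice lie below 0 for Dcx and for Draxin, and the saline mice scatter around 0 for Dcx.

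Both sides came from the same mice, and the kainate effect was compared between them in the main model, which has no term for the mouse. At day 7 the effect was lower in the EZ than in the PIZ for Dcx by 1.45 ± 0.40 and for Eomes by 3.05 ± 0.75 on the log2 scale, with adjusted p = 0.00848 and adjusted p = 0.0044. These were 2 of 8 members called, where 9.89% of all tested genes were. Draxin had an estimate of -1.46 ± 0.54 (adjusted p = 0.0411) and Igfbpl1 one of -0.95 ± 0.45 (adjusted p = 0.108). The Dcx call was lost without saline mice 89 (-1.38, adjusted p = 0.0247), 33 (-1.48, adjusted p = 0.0184), 20 (-1.49, adjusted p = 0.0215) or 34 (-1.44, adjusted p = 0.0209), and without kainate mice 21 (-1.26, adjusted p = 0.0510) or 35 (-1.41, adjusted p = 0.0301). The Eomes call was lost without the same 6 mice, with estimates of -2.89, -2.84, -3.30, -3.15, -3.01 and -2.49 in that order and adjusted p of 0.0178, 0.0165, 0.0108, 0.0117, 0.0252 and 0.0219. Without the 3 PIZ libraries Eomes was still called (-3.36, adjusted p = 0.00783) and Dcx was not (-1.48, adjusted p = 0.0175). Microglia markers had 8 of 8 genes with a higher effect in the EZ at this day, interneuron markers 5 of 10 with a lower one and the neuroblast list 6 of 30 with a lower one. Summed T and NK cell markers at day 7 were 11.1 to 18.6 against 0.33 to 1.44 CPM in the EZ and 1.54 to 3.47 against 0.164 to 0.935 CPM in the PIZ. The part of these lists in the Dcx and Eomes differences was not tested. At day 3 no member was called (0 of 8, where 0.0655% of all genes were), with 2 at an unadjusted p under 0.05 (17.9% of all genes), 0 by DESeq2 and 1 by limma-voom (8.78% of all genes). Eomes had -2.76 ± 0.84 (adjusted p = 0.0895) and Draxin -1.66 ± 0.54 (adjusted p = 0.110). At day 14 there were 0 of 8, where 0.0% of all genes were called, with 2 at an unadjusted p under 0.05 (7.3% of all genes) and 0 by either other tool.

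Within single kainate mice the sign of the side difference was the same throughout for Dcx and Draxin, while its size varied. In kainate mice Dcx was lower in the EZ than in the PIZ of the same mouse in 12 of 12, by 1.01 ± 0.923 on the log2 CPM scale (SD, n = 12 mice). An exact sign-flip test gave p = 0.000488, the smallest it can give, which 12 of 12 mice with the same sign always reach. How many of all tested genes had the same sign in 12 of 12 was not counted. Draxin was lower in the EZ in 12 of 12 kainate mice by 1.19 ± 0.934 with the same exact p, and Eomes in 10 of 12 by 1.89 ± 1.71 (exact sign-flip p = 0.00293). Split by day, Dcx differed by -0.29 ± 0.11 (day 3), -1.52 ± 0.55 (day 7) and -1.23 ± 1.31 (day 14; SD, n = 4 each), and it was lower in the EZ in 4 of 4 mice each time. Without mouse 27 the day 14 value was -0.58 ± 0.24 (SD, n = 3). At day 14 Draxin differed by -1.16 ± 1.61 with mouse 27 and -0.37 ± 0.30 without it, and Eomes by -0.70 ± 1.73 and 0.15 ± 0.40, lower in 2 of 4 mice. In saline mice Dcx showed no such side difference (0.02 ± 0.17, lower in the EZ in 8 of 12, exact sign-flip p = 0.747). Sox4 and Igfbpl1, however, were higher in the EZ of saline mice, Sox4 in 11 of 12 by 0.32 ± 0.29 (exact sign-flip p = 0.000977) and Igfbpl1 in 10 of 12 by 0.59 ± 0.75 (exact sign-flip p = 0.00391). Eomes was higher in 8 of 12 by 0.53 ± 0.69 (exact sign-flip p = 0.0288). In edgeR the saline estimates of Sox4 and Eomes were 0.31 ± 0.13 and 0.55 ± 0.31 (adjusted p = 0.515 and 0.596), and 0.21 and 0.45 without the 3 PIZ libraries. Calb2 was lower in the EZ with either injection, in 10 of 12 saline mice (-0.74 ± 1.33, exact sign-flip p = 0.0317, with the widest gaps in mice 18 and 39) and 11 of 12 kainate mice (-1.04 ± 1.57, exact sign-flip p = 0.00391, with the widest gaps in mice 21 and 27). In edgeR the saline estimate of Calb2 was -1.34 ± 0.40 (adjusted p = 0.32), and -0.23 without the 3 PIZ libraries. The other 8 of these tests, Dcx in saline mice included, had an exact sign-flip p above 0.05. These p-values are 2-sided, from 16 such tests over 8 genes and both treatments, and are not adjusted. The share of all tested genes under 0.05 in such tests was not counted either. In edgeR no member differed between the sides of saline mice at the call used (0 of 8, where 0.0234% of genes did, with 3 at an unadjusted p under 0.05 against 8.92% of genes, and 0 by DESeq2 or limma-voom), and the Igfbpl1 estimate was 0.50 ± 0.19 (adjusted p = 0.455) with all libraries and 0.33 without the 3 PIZ libraries.

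Calb2 varied more between single libraries than between groups. In the PIZ it was 65.4 CPM in mouse 18, 105 CPM in mouse 39 and 89.8 CPM in mouse 21, the 3 libraries with the low granule cell sums, and 45.3 CPM in mouse 27 (kainate day 14). The other 20 PIZ libraries lay between 5.48 and 26.3 CPM. Besides immature granule neurons, Calb2 is made by interneurons and, in mice, by mossy cells of the hilus. The interneuron gene Lhx6 was 17.9, 18.3 and 15.9 CPM in mice 18, 39 and 21, against 7.41 to 13.7 CPM in the other PIZ libraries, and Igfbpl1 was 3.48, 1.42 and 7.24 CPM there. The 3 libraries decided the direction of the PIZ estimates of Calb2 at days 3 and 14. With them the log2 fold changes at days 3, 7 and 14 were -1.14 ± 0.67, 1.90 ± 0.69 and -0.41 ± 0.66, and without them 0.19, 1.09 and 1.59 (adjusted p = 0.812, 0.212 and 0.265 in edgeR). In the EZ, Calb2 had estimates of 0.26 ± 0.68, 0.60 ± 0.69 and 0.37 ± 0.69 at days 3, 7 and 14, and kainate mouse 27 had the lowest EZ value of all (2.36 CPM).

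**Figure D4:**
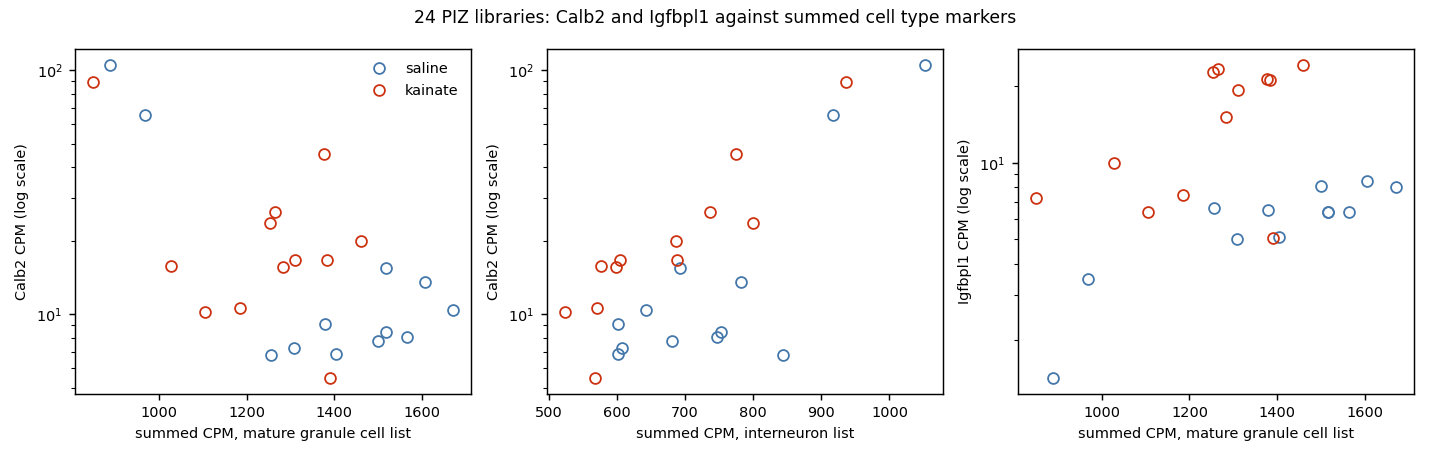
Calb2 (left and middle) and Igfbpl1 (right) in the 24 PIZ libraries (CPM, log scale) against the summed CPM of the mature granule cell list (left and right) or of the interneuron list (middle), with 1 point per library. The 3 libraries under 1000 CPM on the granule cell axis hold the 3 highest Calb2 values (65.4, 89.8 and 105 CPM), and 2 of them hold the 2 lowest Igfbpl1 values (1.42 and 3.48 CPM).

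No change of a kainate effect between successive days was called for a member with all mice. From day 3 to day 7 edgeR called 0 of 8 in the EZ (0.145% of all genes) and 0 of 8 in the PIZ (0.0234%), with 0 and 3 at an unadjusted p under 0.05 (12% and 10.6% of all genes). From day 7 to day 14 it called 0 of 8 in the EZ (0.271%) and 0 of 8 in the PIZ (0.0%), with 0 and 1 at an unadjusted p under 0.05 (33.1% and 3.08% of all genes). DESeq2 called 0 in each of these comparisons, and limma-voom called 2 in the EZ from day 7 to day 14, Dcx (1.25, adjusted p = 0.000746) and Eomes (3.72, adjusted p = 0.00935), where it called 29.5% of all genes, and 0 in the other comparisons.

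After the group means were removed, some members varied together over the 48 libraries. Dcx and Draxin had a Pearson r of 0.75, Eomes and Draxin 0.682, and Dcx and Eomes 0.655. Igfbpl1 varied with Sox11 (r = 0.634) and Sox4 (r = 0.609) and less with Dcx (r = 0.172), and Igfbpl1 and Calb2 had r = -0.387. These values describe libraries that share mice in pairs and share the libraries that stand apart, and were not tested. Among 16961 genes with a mean of at least 1 CPM, the 5 most like Dcx in these deviations were Rbmx (r = 0.85), Nwd2 (0.834), Myt1 (0.83), Kif26b (0.826) and Pds5b (0.813). The 5 most like Igfbpl1 were Gm17750 (r = 0.835), Sema3c (0.819), Ephb1 (0.764), Fstl4 (0.755) and Mcm6 (0.755), over the same 48 libraries.

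The counts of the wider lineage lists are read against the share of all genes called, 24.7% at EZ day 3, 32.5% at EZ day 7 and 8.69% at PIZ day 3. In the EZ the neuroblast list had 5 of 30 genes higher and 8 lower at day 3, 5 higher and 5 lower at day 7, and 0 called at day 14, so that 10 of 30 at day 7 was near the share of all genes. Its most abundant gene, Tubb2b, rose at day 3 (0.87 ± 0.13, adjusted p = 1.29e-06), and St8sia2 rose at day 7 (1.80 ± 0.26, adjusted p = 3.37e-07). The list as a whole summed to less in the EZ of kainate mice, at 2116 to 2317 CPM against 2474 to 2799 CPM in saline mice at day 3. At day 7 the sums were 1745 to 2516 CPM against 2577 to 2729 CPM. The progenitor and cell cycle list had 7 of 12 higher and 2 lower at EZ day 7 and 0 called at day 14, and 5 higher and 0 lower at PIZ day 3. The radial glia-like list had 2 of 15 called at EZ day 14, neither of them without mouse 27, and 6 higher and 1 lower at PIZ day 3. The mature granule cell list had 3 of 14 lower and 0 higher at EZ day 3, 0 called at EZ day 14, and 2 lower at PIZ day 3. Prox1, the homeobox factor of the granule cell lineage, was not called in any of the 6 comparisons of kainate with saline.

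Of 16 tested signals of the neurogenic niche, 4 rose and 3 fell at EZ day 3, 5 rose and 2 fell at EZ day 7, and 1 rose and 2 fell at PIZ day 3, with 0 called in the other comparisons of kainate with saline. The same shares of all genes apply. Bdnf, a neurotrophin, rose in the EZ at day 3 (1.94 ± 0.46, adjusted p = 0.000673) and day 7 (2.09 ± 0.46, adjusted p = 0.000221). Reln, a secreted glycoprotein that guides neuronal positioning, fell by 1.65 ± 0.20 on the log2 scale at EZ day 3 (adjusted p = 5.55e-08) and had 0.10 ± 0.19 at day 7 (adjusted p = 0.659). Reln is made by interneurons and Cajal-Retzius cells, whose marker lists had 8 of 10 and 4 of 7 genes lower at EZ day 3. At EZ day 7 the interneuron list had 7 of 10 lower and the Cajal-Retzius list 0 called, and the part of these lists in the Reln values was not tested.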

How the data were processed

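The authors trimmed paired reads with fastp 0.20.1, aligned them to GRCm39 with HISAT2 2.2.1 and deposited whole-number counts per Gencode M28 gene from featureCounts (Subread 1.6.4), counted by strand and without normalization. A multi-mapping read was counted at its primary alignment, so genes with close relatives are uncertain. Of the identifiers, 98.9% matched the Gencode M39 annotation used for names, positions and lengths, and 0 columns were left unused. Samples were grouped by region, injection and day as labelled.

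In R 4.3.3, edgeR 4.0.16 filtered genes with filterByExpr, scaled libraries by TMM and fitted 1 quasi-likelihood model with 12 group means to all 48 libraries. P-values were adjusted by Benjamini-Hochberg over the 21390 tested genes in each of 16 comparisons, and calls required a change of more than 1.5-fold with an adjusted p below 0.01. The alternatives covered the tool (DESeq2 1.42.0 or weighted voom in limma 3.58.1), the libraries modelled (the compared groups alone, or leaving out 1 mouse at a time with both libraries), scaling (RLE or the plain library size), the low-count filter (none, or a minimum of 10 counts everywhere), a looser adjusted p of 0.05, the mouse as a block and a prior count of 0.5. Single-library tests used log2 CPM with a prior count of 2 (Python 3.11.15, scipy 1.17.1). The model was tested on simulated counts.

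The 2 libraries of a mouse come from the same animal. Their deviations correlated between -0.0536 and 0.376 (median 0.208, over 0.1 in 20 of 24 pairs), with a consensus correlation of 0.163. Each group held 4 mice, and Eomes and Draxin had low counts (medians of 32 and 74 per library, against 208 for Calb2). At EZ day 3 the SE was 0.62 for Eomes, 0.39 for Draxin and 0.68 for Calb2. How much each of these limited precision was not tested.

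Named genes were the 8 members, the 2 most abundant genes of each of 5 lineage lists (radial glia-like stem cell, progenitor and cell cycle, neuroblast, mature granule cell, niche signals) with any called in the EZ at day 14 or the PIZ at day 7 or 14, and the 5 genes most like Dcx and Igfbpl1. Genes outside this rule are marked as named after their values were seen. The members and lists were chosen with earlier results of these data known. Promoters were read from the GRCm39 genome before the Gencode M39 canonical start, and that of 1 member is not reported here. Histology was not analysed here.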

Additional observations from a re-analysis of the deposited data

Results flagged for a closer look

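Within sets of 4 libraries, a value was singled out when its gap to the nearest other value was over 0.829 of the whole range on the log2 CPM scale (prior count 2), which chance gives in about 1 of 20 sets, and 11 of 96 sets held such a value. In the EZ of kainate mouse 27 at day 14, Dcx (5.21 CPM), Eomes (0.181 CPM), Draxin (0.453 CPM) and Calb2 (2.36 CPM) each lay far below the other 3 mice. This library also had a microglia sum of 3976 CPM against 571 to 901 CPM, and the part of that in the low values was not tested. In the PIZ of saline mouse 39 at day 14, Igfbpl1 (1.42 CPM) and Eomes (0.539 CPM) were low and Calb2 (105 CPM) was high. In the PIZ of kainate mouse 21 at day 7, Igfbpl1 (7.24 CPM) and Draxin (3.58 CPM) were low. Mice 39 and 21 gave the 2 PIZ libraries with the lowest mature granule cell sums. Eomes was also apart at 0.0765 CPM (2 counts) in the EZ of kainate mouse 30 at day 3 and at 0.941 CPM in the PIZ of saline mouse 89 at day 7.

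The kainate effect at day 7 differed between the sides, by the test of the difference itself, for Eomes (EZ minus PIZ -3.05 on the log2 scale, adjusted p = 0.0044) and Dcx (-1.45, adjusted p = 0.00848) in edgeR. Both calls depended on single mice, as given with the side comparison.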

How the results depend on the processing

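Numbers of members called, of 8, are compared here with 1 at EZ day 3, 1 at EZ day 7, 1 at PIZ day 14, 2 for the side difference at day 7, and 0 elsewhere. With an adjusted p under 0.05 the numbers were 2 at EZ day 3 and 3 at EZ day 7. They were 1 at PIZ day 3, 1 at PIZ day 7 and 3 for the side difference at day 7. The share of all tested genes called at this looser threshold is not given here. The shares given with the main call do not apply to these numbers, which are therefore descriptive only. DESeq2 gave 1 at PIZ day 7, where it called 195 genes in all. Limma-voom gave 2 at EZ day 3, 3 at EZ day 7, 6 at PIZ day 7, 4 at PIZ day 14, 1 for the side difference at day 3, 3 for that at day 7 and 2 for the EZ change from day 7 to day 14, where it called 32.8%, 36.3%, 3.84%, 0.449%, 8.78%, 24% and 29.5% of all genes. Modelling only the groups compared left 0 at EZ day 7, 0 at PIZ day 14 and 1 for the side difference at day 7. Library size alone gave 2 at EZ day 3, where it moved the median of all genes by 0.13 (log2), and 1 at PIZ day 7. Requiring 10 counts in every library, which removed Eomes, left 0 at EZ day 3 and 1 for the side difference at day 7. Without the 3 PIZ libraries, an alternative chosen after seeing the data, there were 2 at EZ day 3, 2 at EZ day 7, 1 at PIZ day 7 and 1 for the side difference at day 7. Of all genes, 24.7%, 32.6%, 0.319% and 2.57% were called there in the same order. Beyond the settings whose construction removes genes or libraries, the cause of these changes was not tested.

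Leaving out 1 mouse at a time gave 1 to 2 at EZ day 3, 0 to 3 at EZ day 7, 0 to 1 at PIZ day 3, PIZ day 7 and PIZ day 14, 0 to 2 for the side difference at day 7 and 0 to 1 for the EZ change from day 7 to day 14. With the mouse as a replicate block the numbers were those of the main model in every comparison where it was fitted, 1, 1 and 0 in the EZ, 0, 0 and 1 in the PIZ and 2 for the side difference at day 7. The mouse was a fixed edgeR term for comparisons of the sides and a random term in unweighted limma-voom elsewhere. Elsewhere the tool thus changed along with the block. The block was not fitted for saline day 14 against day 3. RLE factors and no filter changed no number by over 1.5 times, and a prior count of 0.5 left 15 of 48 sets of kainate and saline libraries separated, as with 2. Of 2560 values of single members under other settings, 35 became called, 23 lost their call and 0 called values reversed, while 111 uncalled estimates changed sign. Counts of Eomes, down to 1 in a library, limit its estimates.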
